A study of Mus musculus with 6 samples.

Results

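Colonic lamina propria macrophages of mice with 1 working copy of Il10rb were compared between 1 and 3 weeks of age, across weaning, gene by gene in 1 RNA-seq library per age. The genes compared were those with a normalized count of 50 or more in either library, outside chromosomes X and Y, which gave 10046 of the 14097 genes in the table. The mice were untreated Il10rb+/- animals (het) of the 129SvEv strain, the littermate control genotype of a study on mice lacking Il10rb, which encodes the signalling chain of the IL10 receptor. The study sequenced 6 libraries, 1 from Il10rb+/- and 1 from Il10rb-/- (KO) mice at each of 3 ages (1, 3 and 12 weeks). The 1-week libraries each came from a pool of 3 to 5 mice and the others from 1 mouse each, so the 1-week library averaged several animals and the 3-week library did not. Sex is not given in the labels. Cells were sorted as CD45+, CD11b+, CD11c intermediate, CD103-, CD64+, Ly6C- and MHCII+.

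The macrophages of the colon wall take up bacteria and dead cells, present antigen and respond to IL10, and they tolerate the flora that expands when milk gives way to solid food. In the newborn gut they descend largely from embryonic precursors, and around weaning blood monocytes enter the tissue in waves, lose Ly6C and gain MHC class II. A subset near vessels and nerves stays for long periods and carries markers such as LYVE1, CD163, FOLR2 and TIM4.

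The deposited values were counts divided by a size factor for each library, with 1 written where no read was found. From the spacing of the values, the 1-week het library held 14952689 reads on the listed genes and the 3-week het library 6700337, against 9892762 to 40754971 in the other 4. A normalized count of 50 stood for about 50.4 reads in the 1-week and 20.5 reads in the 3-week het library. The 4 Y-linked genes examined held 1123 reads in the 1-week het pool and 5 in the 3-week het library. In het the sex of the mice and their age thus cannot be told apart. In the KO libraries of 1 and 3 weeks these genes held 6 and 11 reads. Il10rb itself stood at 1221 and 939 in the het libraries and at 12.0 and 24.6 in the KO libraries of the same ages. Intervals given with a log2 ratio (3 weeks over 1 week) are exact 95% Clopper-Pearson intervals of the read share and cover counting error only. With 1 library per age, the difference between mice was not measured and no p-value can be given for the het libraries alone.

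The sorted cells read as macrophages at both ages. All 14 genes of the macrophage list were read in every library, and 13 of them stayed within 3-fold between 1 and 3 weeks. Csf1r, the receptor for the growth factor that macrophages depend on, stood at 80123 and 65622, and Fcgr1, which encodes CD64, at 1927 and 1859. The exception was Lyz2 (lysozyme). Of the other genes of the gate, Ptprc (CD45) was at 23480 and 20692 and Itgam (CD11b) at 1583 and 2205, while Itgax (CD11c) was at 3391 and 1501, a log2 ratio of -1.18 (-1.30 to -1.05). Itgae (CD103) was found in 13 reads and then 3, Ly6c1 in 0 and 2, and Ly6c2 in 6 and 4, so both markers that the gate excludes were at or near the limit of detection.

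Of the 10046 genes, 355 (3.53%) were over 3-fold higher at 3 weeks than at 1 week and 104 (1.04%) were over 3-fold lower. Counts past 3-fold in het for the gene lists below are to be read against these shares. The interval excluded no change for each of these genes, and 114 of the higher and 8 of the lower genes differed by over 10-fold. Most of the transcriptome moved little: 9051 genes (90.1%) stayed within 2-fold, and the median log2 ratio was -0.06. By any amount, 4422 genes (44%) were higher and 5624 (56%) lower. The genes next to the threshold were Ethe1 (181 and 545) inside and Mfsd6 (40.7 and 122) outside on the higher side, and Fap (319 and 105) and Cnbd2 (204 and 68.1) on the lower side.

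**Figure D1:**
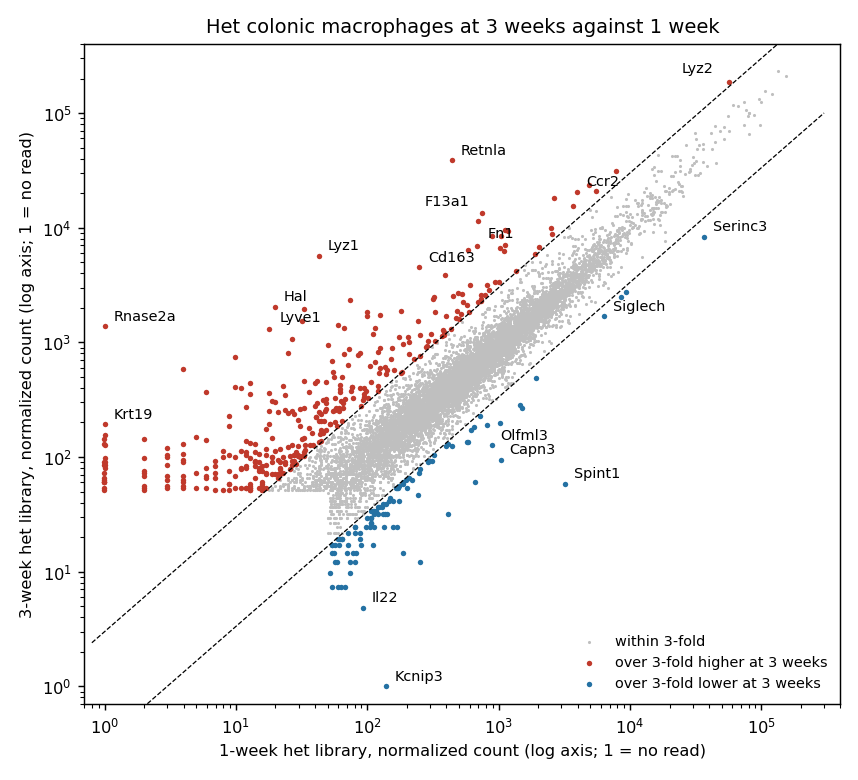
Normalized counts of the 10046 genes in the 1-week het library (x axis, log) and the 3-week het library (y axis, log), 1 point per gene, with dashed lines at 3-fold. The 355 genes in red lie above the upper line and the 104 in blue below the lower one, and the red points reach farther from the lines than the blue.

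The same ages were also sampled in Il10rb-/- mice, in 2 libraries that share none with the het comparison. Over the same 10046 genes, 268 (2.67%) passed 3-fold upward and 67 (0.667%) downward in KO, while 50.5% of genes were higher by any amount and 49.5% lower. Of the 355 genes higher in het, 332 (93.5%) were also higher in KO, 171 (48.2%) by over 3-fold, and none was over 3-fold lower. Of the 104 genes lower in het, 90 (86.5%) were also lower in KO, 33 (31.7%) by over 3-fold, and 1 (Il22) was over 3-fold higher. The median log2 ratio of the 355 genes was 2.53 in het and 1.56 in KO, and that of the 104 genes was -1.91 and -1.19. Since the genes were chosen on the het ratio, the smaller KO medians are a description.

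**Figure D2:**
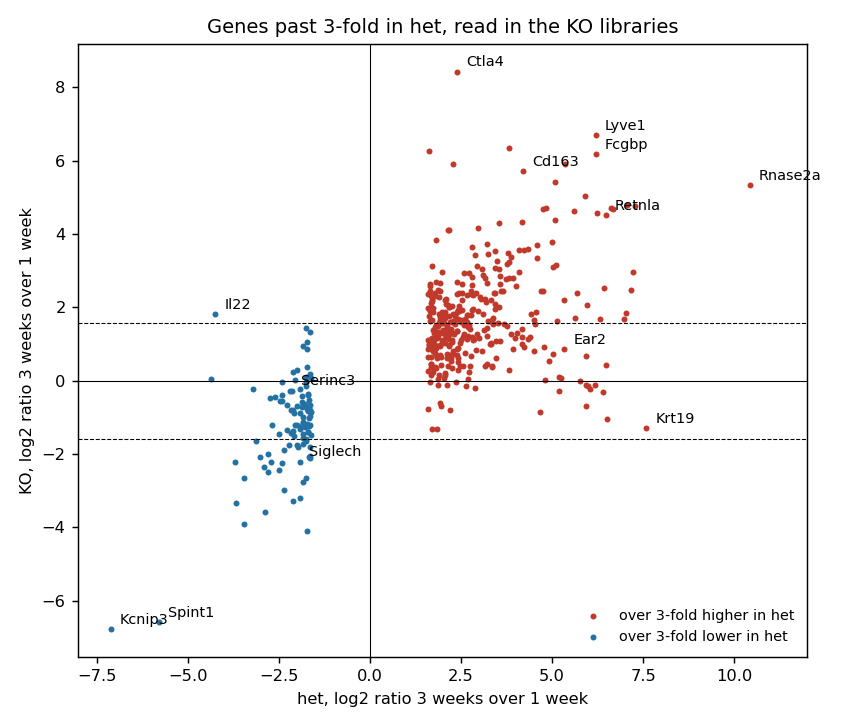
Log2 ratios, 3 weeks over 1 week, in het (x axis) and KO (y axis) for the 355 genes over 3-fold higher (red) and the 104 over 3-fold lower (blue) in het, with dashed lines at 3-fold in KO. Most red points lie above 0 in KO and most blue points below it, with Krt19 and Il22 among the exceptions. Genes with no read in a library were plotted at a value of 1.

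With genotype as a term, limma fitted to the 2 libraries of each age called 870 genes (8.66%) higher and 488 (4.86%) lower at 3 weeks at an adjusted p under 0.05. This is an age effect averaged over both genotypes, with 1 residual degree of freedom, and not a test of the het mice. The prior degrees of freedom, the weight that limma gives to the pooled variance, were infinite in this fit. Each gene's variance thus came from the trend over all genes alone. The counts were 393 and 423 when the values were scaled to total reads, 196 and 57 without the genotype term, and to 1 and 1 with all 6 libraries in the fit. Calls from this fit are given below only as counts over a list.

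Many genes of long-lived resident macrophages were higher at 3 weeks. Of the 18 members of this list that passed the filter, out of 20, 9 were over 3-fold higher, none was over 3-fold lower, and the median log2 ratio was 1.58, against -0.06 over all genes. Lyve1, a receptor for hyaluronan, had 17.8 at 1 week and 1312 at 3 weeks, a log2 ratio of 6.20 (interval 5.53 to 6.97). Its normalized count was 3120 in the 12-week het library and went from 12.0 to 1241 in KO. Cd163, the scavenger receptor for haemoglobin bound to haptoglobin, had 247 and 4536 (log2 ratio 4.20, interval 4.01 to 4.40), and 4112 at 12 weeks. For both genes each 3-week library lay above each 1-week library, by over 10-fold. F13a1, the coagulation factor XIII subunit, was at 746 and 13406, and Folr2, a folate receptor, at 66.4 and 1334. Cbr2, a carbonyl reductase, stood at 31.7 and 1545, and Ccl8, a chemokine made by resident macrophages, at 32.7 and 1947. Each of these 4 genes was over 15-fold higher at 3 weeks, by between 18.0-fold for F13a1 and 59.5-fold for Ccl8.

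Among the C-type lectins, Cd209f (87.3 and 803), Cd209g (22.8 and 414) and Cd209b (121 and 419) were over 3-fold higher in het, with KO log2 ratios of 0.45, 1.19 and 0.76, and their sequences are alike enough that reads may have been shared between copies. Timd4 (TIM4), by which the long-lived subset is often defined, had 304 and 555, a log2 ratio of 0.87 (0.61 to 1.12) that did not reach 3-fold. Mrc1 (the mannose receptor) stood at 14262 and 19977, and Slc40a1, the iron exporter ferroportin, was the lowest member at -0.91. In the limma fit 13 of the 18 were called higher (8.66% of all genes) and none lower. The KO median was 1.11 with 8 members over 3-fold higher.

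Genes of blood monocytes were higher too, in cells with almost no Ly6c2 reads. Of 12 members that passed the filter, out of 16, 7 were over 3-fold higher and none lower, with a median log2 ratio of 1.80 in het and 0.97 in KO. Ccr2, the receptor by which monocytes leave the marrow and enter tissue, had 3960 at 1 week and 20629 at 3 weeks (log2 ratio 2.38, interval 2.33 to 2.44). At 12 weeks het had 11505, and KO went from 10700 to 19378, so the 1-week het library was the lowest of these 5. Fn1 (fibronectin) had 680 and 6970 in het (3.36, interval 3.24 to 3.48) and 2504 and 3309 in KO. The 2 genotypes met at a similar level of Ccr2 at 3 weeks, whereas for Fn1 the het library was higher at that age. F10 (coagulation factor X) went from 66.4 to 796, Hp (haptoglobin) from 6.94 to 73.0 and Ms4a4c from 328 to 1034. Itgal, an integrin subunit on the list, had a log2 ratio of -0.60. Since these are sorted cells measured in bulk, more cells of a type and more RNA per cell cannot be told apart here or below.

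3 small gene families that were grouped after their values were seen moved alongside. S100 proteins bind calcium, and of 14 members 6 passed the filter and 4 were over 3-fold higher, namely S100a4, S100a6, S100a10 and S100a11. S100a6 had 181 and 1869 and S100a10 had 323 and 2507. Among annexins, which bind membranes, Anxa1 (581 and 6337) and Anxa2 (388 and 3903) were over 3-fold higher, and the other 6 that passed ranged from 0.01 to 0.69 on the log2 scale. Of the IFITM proteins, which block viral entry, 4 of 5 were over 3-fold higher, with Ifitm3 at 606 and 3173 and Ifitm6 at 27.8 and 238, and KO log2 ratios of 2.36 and 2.88.

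**Figure D3:**
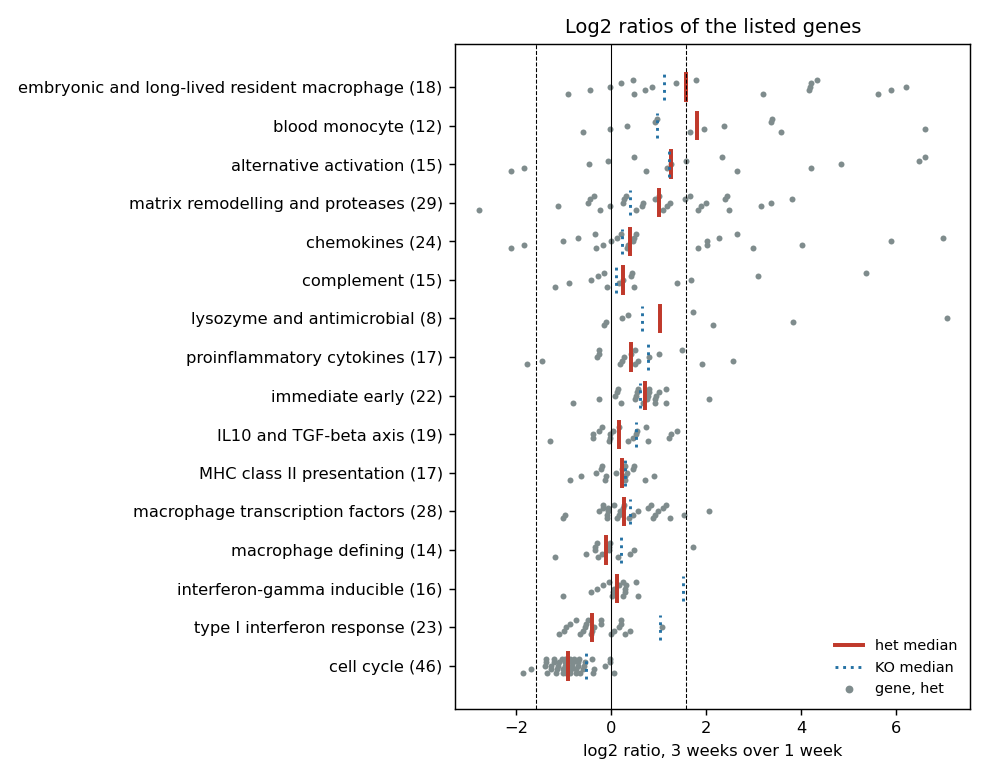
Log2 ratio, 3 weeks over 1 week, of each gene used in 16 lists (grey points; the number used stands beside the name), with the het median in red, the KO median dotted in blue and dashed lines at 3-fold. The resident, monocyte and alternative activation lists extend far to the right of the threshold, while nearly all 46 cell cycle genes lie left of 0.

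Genes of alternative activation, the program that IL4 and IL13 induce, held some of the largest ratios. Of 15 members that passed, out of 17, 6 passed 3-fold upward and 2 downward, and the median log2 ratio was 1.27 in het and 1.23 in KO. Retnla (RELM alpha), a secreted protein induced through STAT6, had 438 at 1 week and 38836 at 3 weeks (log2 ratio 6.47, interval 6.33 to 6.61), with 52045 at 12 weeks. In KO it went from 620 to 14214. Chil3 (Ym1), a chitinase-like protein, was found in no read at 1 week and in 40 reads at 3 weeks, at least 32.7-fold higher when 3 reads are taken as the floor of the 1-week library. Alox15, a lipoxygenase, was at 3 reads and 35 reads, a ratio of 28.6 with an interval of 3.17 to 7.19 on the log2 scale. Ccl24 (eotaxin 2) had 175 and 1107, and Mgl2, a galactose-binding lectin, 3492 and 8425, which is under 3-fold. The 2 lower members were the chemokines Ccl17 and Ccl22, which attract T cells through CCR4. In KO 5 members of the list were over 3-fold higher and none over 3-fold lower. The limma age effect averaged over both genotypes was -0.93 for Ccl22 and -1.40 for Ccl17. In het Ccl22 had 813 and 189.8 and Ccl17 had 129.9 and 36.5, and at 12 weeks both were above their 1-week level, at 3136 and 508.

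The region before the start of Retnla is shown because the gene passed 50-fold from an already measured level. STAT6 binds motifs of the form TTC and GAA with 4 bases between. Capitals mark the motif, which reads alike on either strand. The promoters shown here and below were chosen after the values and matches were seen. The sequence is the 250 bases before the RefSeq start in GRCm38.p6, chr16:48842359-48842608, plus strand.
Retnla: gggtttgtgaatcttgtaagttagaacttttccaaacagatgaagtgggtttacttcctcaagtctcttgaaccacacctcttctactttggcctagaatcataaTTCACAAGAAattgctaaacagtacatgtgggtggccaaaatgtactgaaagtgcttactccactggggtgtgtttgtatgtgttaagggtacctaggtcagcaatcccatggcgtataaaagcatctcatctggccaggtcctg
The window holds 1 match. Among the higher genes with a promoter in the table, 14 of 269 (5.20%) held this motif, close to the 4.40% of all 8052 genes used that had one.

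Of 8 lysozyme and antimicrobial genes that passed, out of 19, 4 were over 3-fold higher and none lower. Lyz2, the lysozyme of macrophages, went from 56478 to 186441, a log2 ratio of 1.72 (1.71 to 1.74). Lyz1, the neighbouring gene known from Paneth cells, went from 42.6 to 5714, a 134-fold difference (log2 ratio 7.07, interval 6.63 to 7.54), with 8685 at 12 weeks. The ratio of the copies thus changed, although reads of the 2 genes can be assigned to the wrong copy. Slpi, a protease inhibitor, had 17.8 and 253, and Irg1, which makes itaconate, 46.6 and 207. The phagocyte oxidase subunits Ncf1, Ncf4 and Cyba lay between -0.15 and 0.35. Saa3, an acute-phase apolipoprotein, was at 9.92 and 752.

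The 250 bases before the starts of the lysozyme genes are shown to let the copies be compared, both on the minus strand of GRCm38.p6, at chr10:117292869-117293118 for Lyz1 and chr10:117282273-117282522 for Lyz2. Capitals mark the longest identical run, of 50 bases, which reaches the start site in both genes.
Lyz1: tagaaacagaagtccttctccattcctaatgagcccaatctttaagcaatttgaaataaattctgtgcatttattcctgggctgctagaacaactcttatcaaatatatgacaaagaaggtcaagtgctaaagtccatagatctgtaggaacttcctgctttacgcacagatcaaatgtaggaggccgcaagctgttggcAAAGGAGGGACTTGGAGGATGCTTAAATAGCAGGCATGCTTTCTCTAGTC
Lyz2: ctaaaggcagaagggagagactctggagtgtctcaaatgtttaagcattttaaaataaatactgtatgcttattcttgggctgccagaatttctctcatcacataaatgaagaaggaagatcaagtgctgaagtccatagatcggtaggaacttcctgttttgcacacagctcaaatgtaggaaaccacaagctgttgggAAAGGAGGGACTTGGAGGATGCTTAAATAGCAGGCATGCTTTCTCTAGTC
Over the alignment of the windows, 200 of 248 aligned bases (80.6%) were identical.

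Chemokines moved in both directions. Of 24 that passed, out of 26, 9 were over 3-fold higher and 2, Ccl17 and Ccl22, over 3-fold lower. Ligands of CCR2, which draw in monocytes, were among the higher ones: Ccl2 had 7794 and 31419, and Ccl7 had 4893 and 23751. Ccl6 (701 and 11355) and Ccl9 (1187 and 9437), a neighbouring pair of CC chemokines, were 16.2-fold and 7.95-fold higher. Cxcl13, which attracts B cells, was found in no read at 1 week and 52 at 3 weeks, at least 42.5-fold higher. Neutrophil-attracting Cxcl1 and Cxcl2 and the macrophage inflammatory proteins Ccl3 and Ccl4 lay between -0.18 and 0.46. The median over the list was 0.41 in het and 0.22 in KO, where 7 were over 3-fold higher and none over 3-fold lower.

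Among inflammatory cytokines the largest values went opposite ways. Il6 had 114 at 1 week and 674 at 3 weeks (log2 ratio 2.56, interval 2.24 to 2.89), and Il1rn, the receptor antagonist that blocks IL1, had 5510 and 20687. Il1a stood at 8488 and 2504 in het and at 10109 and 10746 in KO. Tnf and Il1b stayed within 2-fold in het (-0.29 and 0.80). Il12b, found in 223 reads and 33 reads, had a log2 ratio of -1.46 (-2.04 to -0.93) in het. Averaged over both genotypes in the limma fit, its age effect was 0.13, so KO did not share this fall. In all 2 of 17 were over 3-fold higher and 1 lower (3.53% and 1.04% of all genes). Of 15 complement genes 3 were over 3-fold higher (3.53% of all genes) and none lower. C1qa, C1qb and C1qc, the abundant first components, lay between 0.16 and 0.45, whereas C4b went from 9.92 to 406, C1ra from 30.7 to 260.4 and C3 from 701 to 2239.

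Genes of matrix turnover were higher in number, with KO ratios smaller. Of 29 that passed, out of 32, 10 were over 3-fold higher and 1, the protease Adamts1 (168 and 24.3), over 3-fold lower. The median log2 ratio was 1.00 in het and 0.40 in KO, and 2 members were over 3-fold higher in KO. Adamdec1, a protease of gut macrophages, had 71.4 and 635 in het against 223 and 295 in KO. Igf1, a growth factor that macrophages supply to the epithelium, had 452 and 2533 in het against 770 and 1015 in KO. For both genes the 1-week het library was the lowest and the 3-week het library the highest of these 4. Lgals3 (galectin 3) went from 2497 to 9924, Mmp19 from 289 to 1022 and Mmp8 from 76.3 to 404. Sparc, a matrix protein also made by fibroblasts, had 32.7 and 458 in het and 279 and 339 in KO.

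Macrophage transcription factors were mostly steady. Egr2, which marks long-lived monocyte-derived cells, was the exception among 28 members at over 3-fold, with 3677 and 15409 (log2 ratio 2.07, interval 2.01 to 2.13) and 4390 and 15228 in KO. Klf4 (4967 and 14343), Klf2 (15236 and 33931) and Id3 (743 and 1750) were each over 2-fold higher. Bhlhe41 was just over 2-fold lower (576 and 287), and Mef2c lay at -0.97. Spi1, Zeb2, Runx3, Irf8 and Nr4a1 lay between -0.09 and 0.18. Immediate early genes, which tissue digestion can induce, had a median of 0.72 in het and 0.60 in KO with 20 of 22 higher in het (44% of all genes), and Klf2 and Egr2 belong to that list as well. Their part in these results was not tested.

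Antigen presentation and the IL10 and TGF-beta pathways held few differences of size. None of 17 MHC class II genes passed 3-fold in either direction, and H2-Ab1 stood at 153618 and 211504 (log2 ratio 0.46). Of the 19 genes of the IL10 and TGF-beta list that passed, none reached 3-fold. Il10 had 1330 and 1701 (0.36, interval 0.22 to 0.49) before 10488 at 12 weeks, and Il10ra had 8060 and 8276. Socs3, a target of IL10 signalling, stood at 16337 and 42954, and Tgfbr1, the kinase subunit of the TGF-beta receptor, at 18523 and 7605. Interferon-induced genes had unlike medians in the 2 genotypes. The type I list had a median of -0.40 in het with 16 of 23 lower (56% of all genes). In KO its median was 1.03 with all 23 higher (50.5% of all genes). For Ifit2 the het libraries held 1746 and 823 and the KO libraries 338 and 1333. The interferon-gamma list had medians of 0.12 and 1.51. The difference between genotypes was not tested, with 1 library for each age and genotype.

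Nearly all cell cycle genes were lower at 3 weeks. Of 46 genes that passed, out of 46, 45 were lower (56% of all genes) and 1 (E2f1, log2 ratio 0.06) was higher. The median was -0.90 in het and -0.54 in KO, where 42 were lower (49.5% of all genes). Only Bub1b, a kinase of the spindle checkpoint, and Tk1 (thymidine kinase) were over 3-fold lower. Bub1b had 611 and 170.3 (log2 ratio -1.84, interval -2.22 to -1.48), with 158 at 12 weeks, and went from 505 to 226 in KO. Tk1 had 400 and 124, Cdk1 469 and 231, and Ccnb2 (cyclin B2) 403 and 189.8. Mki67, which encodes the proliferation marker Ki-67, had 1510 and 769 in het and 1267 and 1130 in KO. Most members thus stayed within 3-fold while sharing a direction. Pcna had 1279 and 1265, a log2 ratio of -0.02 (-0.17 to 0.13). In the limma fit 32 of the 46 were called lower (4.86% of all genes) and none higher.

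Promoters of cell cycle genes are shown because the list moved together and because many carry CCAAT boxes, bound by NF-Y, and the element TTTGAA, bound by the DREAM and MuvB complexes. Capitals mark both motifs on either strand (ATTGG and TTCAAA being the reverse). The Bub1b window holds 1 CCAAT match and no TTTGAA match, while the windows of Ccnb2 and Cdk1 hold both. Each is the 250 bases before the RefSeq start in GRCm38.p6: Bub1b at chr2:118597961-118598210 on the plus strand, Ccnb2 at chr9:70421555-70421804 and Cdk1 at chr10:69352913-69353162 on the minus strand.
Bub1b: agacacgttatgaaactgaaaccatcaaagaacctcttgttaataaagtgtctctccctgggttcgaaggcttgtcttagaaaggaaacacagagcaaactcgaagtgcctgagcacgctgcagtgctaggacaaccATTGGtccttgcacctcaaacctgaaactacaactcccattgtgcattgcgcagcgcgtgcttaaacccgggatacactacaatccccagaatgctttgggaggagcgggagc
Ccnb2: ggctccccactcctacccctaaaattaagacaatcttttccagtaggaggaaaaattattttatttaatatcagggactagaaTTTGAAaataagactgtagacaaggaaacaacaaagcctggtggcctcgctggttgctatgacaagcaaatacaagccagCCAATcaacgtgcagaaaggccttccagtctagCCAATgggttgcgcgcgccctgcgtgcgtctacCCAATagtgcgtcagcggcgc
Cdk1: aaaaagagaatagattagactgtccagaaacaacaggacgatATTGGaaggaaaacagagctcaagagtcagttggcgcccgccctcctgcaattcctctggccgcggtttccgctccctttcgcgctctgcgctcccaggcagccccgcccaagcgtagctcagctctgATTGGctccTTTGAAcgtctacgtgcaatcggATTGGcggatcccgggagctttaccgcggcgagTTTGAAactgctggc
Of the 39 cell cycle genes with a promoter in the table, 29 (74.4%) held CCAAT and 9 (23.1%) held TTTGAA, against 36.3% and 10.5% of all 8052 genes used that had one. For the 104 lower genes as a set the shares were 34.2% and 6.33% (79 with a promoter). For the 355 higher genes they were 35.7% and 16.7% (269 with a promoter). These are shares of letters in a window and not of bound sites.

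The largest single differences downward belonged to genes of varied function. Siglech, a sialic acid receptor of microglia and plasmacytoid dendritic cells, had 6331 at 1 week and 1686 at 3 weeks (log2 ratio -1.91, interval -2.02 to -1.80), with 1055 at 12 weeks and 2703 and 583 in KO. Olfml3, a secreted protein also known from microglia, had 885 and 127 in het and 959 and 241 in KO. In a list of 30 microglia genes drawn up after these values were seen, 26 passed, 18 were lower (56% of all genes) and the median was -0.47 in het and -0.50 in KO. P2ry12, the purine receptor that guides microglial processes, had 5379 and 2241, over 2-fold lower. Tmem119 lay at -0.44, and Sparc was the 1 member over 3-fold higher. Among developmental genes, Sox4 went from 652 to 183 in het and had a log2 ratio of -2.76 in KO.

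Other genes with large differences downward included receptors and matrix genes. Ptger3, a receptor for prostaglandin E2, had 661 and 60.8, and Adgrl3 (latrophilin 3), an adhesion receptor, 1461 and 285. Npnt (nephronectin), a matrix ligand of integrins, had 187 and 14.6, Gas1 1020 and 199.5, and Btbd11 413 and 31.6. Capn3, a calpain protease, had 1035 and 94.9, and Fam189a2 1506 and 268. In KO these 7 genes were lower as well, with log2 ratios between -3.92 and -1.44. AI506816 (251 and 12.2) was low at 18.0 and 18.5 in KO, and Il22, a cytokine of innate lymphoid cells, was found in 93 reads and then 2, a log2 ratio of -4.24 (-7.31 to -2.35). Serinc3, a membrane protein that restricts retroviruses, stood at 36534 in the 1-week het library and between 7628 and 10152 in the 3-week het, 12-week het and both younger KO libraries, so the 1-week het library alone stood apart.

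Spint1 and Kcnip3 had the largest differences downward in the comparison, by the interval bound nearest to 0. Spint1, a membrane inhibitor of serine proteases, had 3204 at 1 week and 58.4 at 3 weeks (log2 ratio -5.78, interval -6.42 to -5.20), and 3202 and 33.4 in KO, yet 2543 in the 12-week het library. Kcnip3, a calcium-binding partner of potassium channels, was found in 139 reads and then in none, at least 18.9-fold lower with 3 reads as the floor, and in 73 and 0 reads in KO. Both are on chromosome 2 in GRCm38, Spint1 at chr2:119237362-119249527 and Kcnip3 at chr2:127456498-127522094.

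**Figure D4:**
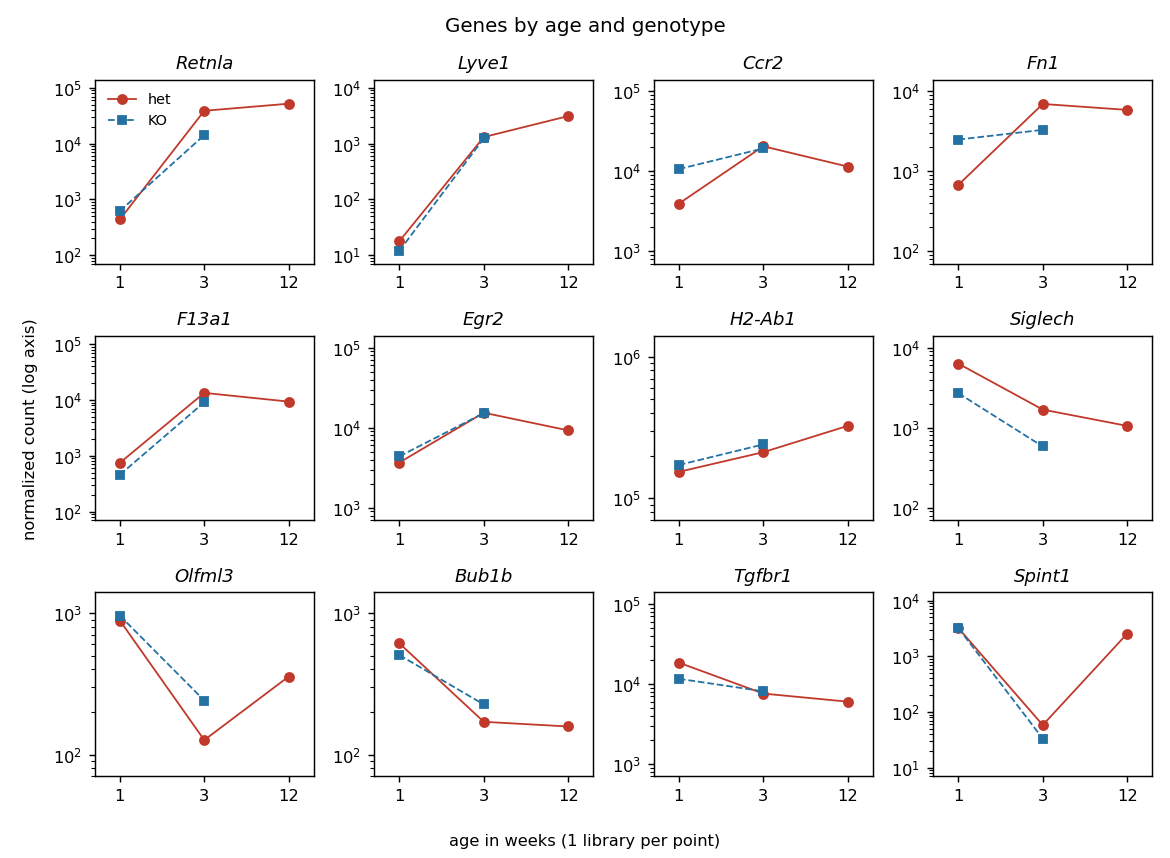
Normalized counts (y axes, log) of 12 genes at 1, 3 and 12 weeks in het (red circles) and at 1 and 3 weeks in KO (blue squares), 1 library per point, with ages spaced evenly and not to scale. Retnla, Lyve1 and F13a1 are higher at 3 weeks in both genotypes, Siglech, Olfml3 and Bub1b lower, and Spint1 is low at 3 weeks only.

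Several further genes ranked among the largest gains. Hal (histidine ammonia lyase), the first enzyme of histidine breakdown, had 19.8 at 1 week and 2042 at 3 weeks (log2 ratio 6.69, interval 6.05 to 7.40), 7520 at 12 weeks, and 141 and 3618 in KO. Amdhd1, a later enzyme of the same pathway singled out after its values were seen, had 11.9 and 53.5. Steap4, a metalloreductase for iron and copper, had 3.97 and 591, from 4 and 243 reads. Rnase2a, an eosinophil-type ribonuclease, was found in no read at 1 week and in 569 at 3 weeks, at least 466-fold higher, and Ear2, a relative, had 26.8 and 1078. The KO values of Ear2 were 187 and 339. Clca1, a secreted protein of goblet cells, was in no read and 64 reads, at least 52.4-fold higher.

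The promoter of Hal is shown as an example of the motif TGANTCA, to which AP-1 factors bind, chosen because more of the higher genes than of all genes held it. Capitals mark it on either strand. The window is the 250 bases before the start in GRCm38.p6, chr10:93488518-93488767, plus strand.
Hal: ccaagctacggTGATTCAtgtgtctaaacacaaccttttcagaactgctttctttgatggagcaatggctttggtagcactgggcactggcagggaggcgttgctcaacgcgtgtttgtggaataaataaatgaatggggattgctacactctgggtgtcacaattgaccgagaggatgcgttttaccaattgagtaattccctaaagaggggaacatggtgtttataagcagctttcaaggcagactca
Of 269 higher genes with a promoter, 30 (11.2%) held it, among them Il1rn, Il6, Igf1, Ccl9, Anxa2, S100a11 and Ifitm3, against 339 of 8052 (4.21%) overall and 4 of 79 lower genes (5.06%). The higher genes also had promoters of lower GC content (median 54.4% against 60.0%), and the part of base composition in this share was not tested.

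RNA of other cell types moved with age in the het libraries. Of 12 epithelial markers that passed, out of 19, 10 were over 3-fold higher, the median log2 ratio was 5.98 (5.58 with unread genes at the floor of 3 reads), and the summed normalized count of 18 genes went from 193 to 2093. In KO the sum was 1218 and 1033 and the median -0.14, so the 1-week het library was the low one. Krt19 was found in no read and 79 reads, at least 64.6-fold higher, Krt8 in 11 and 165, and Car1 in 6 and 153, while 5 of the 18 had no read at 1 week and none at 3 weeks lacked reads. Of the fibroblast and smooth muscle list, 6 of 9 that passed were over 3-fold higher, the median was 3.87, and the sum over 14 genes went from 341 to 3168 (1589 and 3325 in KO). Col3a1 had 100 and 1823, and of 14 collagen genes that passed 9 were over 3-fold higher, a family grouped after the values were seen. The 14 macrophage genes summed to 271802 and 376216, a sum in which Lyz2 had the largest log2 ratio (1.72). Of these 14 genes, 10 were lower (56% of all genes). None of these sums is adjusted for gene length. Leaving out the genes of both lists, but not unlisted genes of these cell types, gave 339 genes higher and 104 lower. The part of these cell types in the other results was not tested.

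Lymphoid and granulocyte markers differed among themselves. Of 9 B and plasma cell genes that passed, out of 19, all 9 were lower in both genotypes (56% of all genes in het, 49.5% in KO). The median was -1.14 in het and -1.33 in KO. The 18 T, NK and innate lymphoid genes summed to 3683 and 2957, of which Cd4, which macrophages also express, made up 3227 and 2356, and Il7r, the other member that passed the filter, 292 and 459.9. Cd3e, Cd3g and Cd8a had between 0 and 2 reads in either het library. For eosinophils, the 3 genes that passed (Rnase2a, Ear2 and Alox15) were all over 3-fold higher and their list's sum over 6 genes went from 61.5 to 2565, while Prg2, which encodes the major basic protein, had no read and Ccr3 had 28 and 7. Neutrophil genes S100a8, S100a9, Ly6g, Camp, Ngp and Mpo had between 0 and 2 reads, endothelial genes summed to 771 and 1032, and dendritic cell genes to 10172 and 5332, of which Siglech was the larger part at 1 week. The 4 mast cell genes in the table summed to 137 and 158, the 7 glial and neuronal genes to 9.9 and 26.8, and the 4 erythroid genes to 0 and 87.6.

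**Figure D5:**
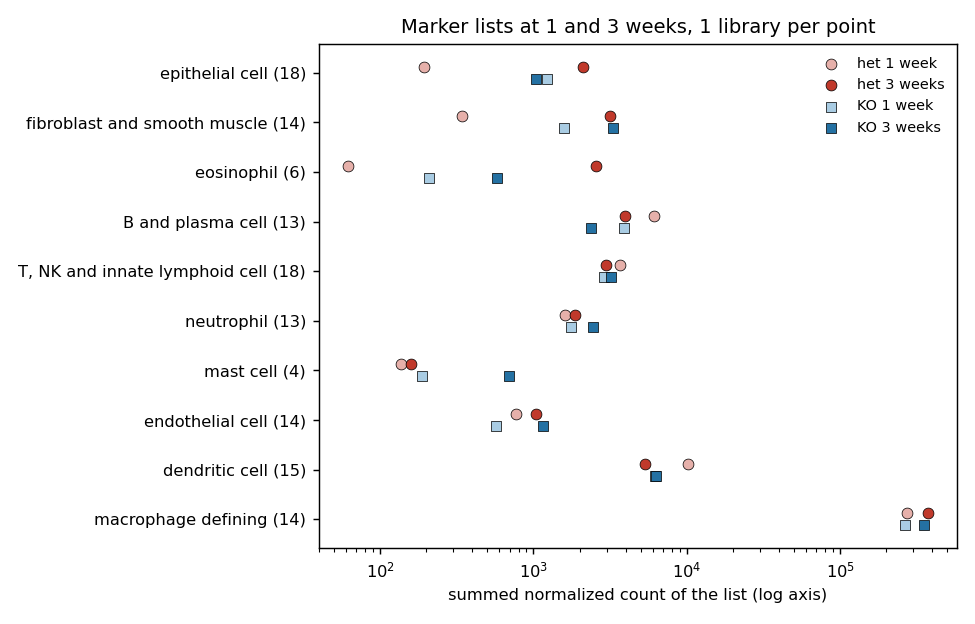
Summed normalized count (x axis, log) of each marker list at 1 and 3 weeks in het (circles) and KO (squares), 1 library per point, with the number of genes summed beside each name. The epithelial, fibroblast and eosinophil sums are lowest in the 1-week het library, and the macrophage sum is the highest in every library shown.

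The remaining lists held smaller or mixed differences. Their counts past 3-fold stand beside 3.53% of all genes higher and 1.04% lower. Heat shock genes shared a direction, with a median of 0.50 and 13 of 14 higher in het (44% of all genes). In KO the median was 1.06 with all 14 higher (50.5% of all genes). Of genes for iron and heme, Cd163, Steap3 and Steap4 of 16 were over 3-fold higher, and for lipid export, Pltp (1113 and 7055) and Apoc2 (8.92 and 58.4) of 22. Ndrg1 (76.3 and 404) was the 1 of 23 glycolysis and hypoxia genes past 3-fold, close to the share of all genes higher. Rarg and Aldh1a2 were 2 of 11 on the aryl hydrocarbon and retinoid list. Tlr5, the flagellin receptor, had 89.2 and 279.9, and with Clec4e was 1 of 2 pattern receptors of 22 past 3-fold. Cholesterol synthesis had a median of -0.23 with 19 of 23 lower (56% of all genes), fatty acid genes -0.05 of 25, scavenger and efferocytosis receptors 0.15 of 21, fetal and imprinted growth genes -0.46 of 7, and the mitochondrial genome 0.04 over 9 genes.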

How the data were processed

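PolyA RNA of sorted colonic macrophages was made into libraries with a SMART-Seq v4 type kit, and the authors' processing notes name Trim Galore, TopHat, HTSeq, DESeq and the build mm10, whose versions are not given in the sources used here. The deposited signal values are gene counts that the authors normalized with DESeq size factors, with 1 shown for 0. In each library all other values were whole multiples (within 0.02 of a read) of 1 step, from which reads were read back. Log2 ratios of 3 weeks over 1 week used genes with 50 or more in either het library. Genes were placed with GENCODE vM21 (GRCm38, as mm10), in which 12 genes of 14097 were not found, and the 449 genes of X and Y were left out. Kits of this type do not mark strand, so antisense partners share reads, and paralogs (lysozymes, Cd209, ribonucleases, chemokines) may too.

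Called genes were over 3-fold apart. A gene with 0 reads was set to 3 reads for a fold bound. limma 3.58.1 (R 4.3.3) was fitted to log2(value + 1) of the 4 libraries of 1 and 3 weeks with genotype as a term, with variance trend and Benjamini-Hochberg adjustment. The ratios, lists and figures were computed in Python (version 3.11.15; numpy, 2.4.6; scipy, 1.17.1; pandas, 2.3.3; matplotlib, 3.10.9), and the ratio and limma steps were tested on simulated data. Nothing in the labels gives replicates within an age and genotype. Named genes were the 15 largest differences each way by the interval bound nearest 0, up to 8 members per list past 3-fold with those a list is known by, and the receptor and gate genes. Members and the 38 lists were chosen with earlier results of these data known, and 5 further lists were added after values were seen. Promoters were the first RefSeq window per symbol, found for 8052 of 10046 genes, with only the 250 bases before the start used. Alternatives were other scalings, filters, thresholds and pseudocounts. A few genes are not reported here.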

Additional observations from a re-analysis of the deposited data

Results flagged for a closer look

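Among the medians of lists with 5 or more genes used and the 30 genes with the largest differences, 7 had opposite signs in het and KO with both beyond 0.1 on the log2 scale. The difference was not tested, because each age and genotype has 1 library. As KO minus het on the log2 scale, the list medians differed by 0.33 for macrophage-defining genes (-0.12 in het and 0.21 in KO), 1.43 for the type I interferon response (-0.40 and 1.03), 0.58 for cholesterol synthesis (-0.23 and 0.35), 0.81 for dendritic cell genes (-0.25 and 0.56) and -6.12 for epithelial genes (5.98 and -0.14). The single genes were Krt19, with -8.88 (7.59 and -1.29, from no read in the 1-week het library), and Il22, with 6.06 (-4.24 and 1.82, from 2 reads in the 3-week het library).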

How the results depend on the processing

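The 355 higher and 104 lower genes stayed within 1.5 times of these counts with TMM scaling, total reads, 100 as the filter, X and Y kept and, as alternatives chosen after seeing the data, unread genes at 3 reads or the epithelial and stromal lists left out. Leaving out these lists removed only 10 epithelial and 6 stromal genes from the higher ones, so it could not have moved the counts that far. Unlisted genes of these cell types stayed in. With a pseudocount of 10 the lower genes numbered 66. With 50 in any of the 6 libraries as the filter the higher genes numbered 564, and with 1 read in either library 1201 were higher and 398 lower. With the whole interval beyond 3-fold 25 were lower, and at 2-fold 640 were higher and 355 lower. The limma counts of 870 higher and 488 lower became 393 higher (and 423 lower) with total reads, 1 and 1 with all 6 libraries, 196 and 57 without the genotype term, and 283 lower with 50 in any library. The prior degrees of freedom in limma were infinite in the main fit and 81.89 with a pseudocount of 10. They were 7.827 with total reads, 3.452 with all 6 libraries, 4.955 without the genotype term and 11.96 with 50 in any library. The cause was not tested. The median log2 ratio of all genes shifted by -0.14 with total reads. Taken relative to it, which TMM and total reads cannot change, the epithelial list median was 3.11 with a pseudocount of 10 (from 6.04), and the other 30 list medians moved by less than their counting interval under that pseudocount. Scaled so that the median gene was unchanged, 366 genes were higher and 99 lower. Of the 30 genes with the largest differences, 9 moved by more than their counting interval with a pseudocount of 10 and 2 with total reads. A count model planned as an alternative was not run, since the deposited values are normalized. The reads read back served for counting intervals and floors. No paired analysis was possible because each age and genotype has 1 library and the label numbers pair nothing, and leaving a library out leaves no residual degrees of freedom.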

Other observations

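By a criterion set after the values were seen (30 or more in every 1-week and 12-week library and under 1/3 of the lowest of these in both 3-week libraries), 3 genes of the whole table outside X and Y were low at 3 weeks alone: Spint1, Kcnip3 and Mgll. Mgll, which breaks down monoacylglycerols, was found in 54 and 3 reads in the het libraries of 1 and 3 weeks and in 562 at 12 weeks. No gene with 50 or more in both 3-week libraries was over 3-fold above all 4 other libraries. Spint1 and Kcnip3 lie 8.21 Mb apart on chromosome 2. Of the 78 genes used from one to the other, 3 were over 3-fold lower and 4 over 3-fold higher (1.04% and 3.53% of all genes). The median log2 ratio was -0.18. The 3 lower genes were Capn3 and the 2 genes at the ends, which were chosen because they were low. By chromosome, the share of genes over 3-fold lower was 1.71% on chromosome 2 (14 of 821) and was highest on chromosome 13, at 1.81% (7 of 387).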
